A study of Mus musculus with 8 samples.

Results

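The 8 genes described here, Mbp, Pmp22, Prx, Mag, Ncmap, S100b, Sox10 and Ngfr, are made in peripheral nerve by Schwann cells, the glia that wrap axons. They were chosen by name, as the rows whose Ensembl identifier maps to these symbols on the GRCm38 annotation, and they are 8 of the 49315 genes in the files. Gastrocnemius, the large calf muscle, came from C57BL/6 mice aged 3, 12, 24 or 30 months, and no other treatment or allele is named in the labels. Each age had 2 RNA-seq libraries, 8 in all, made from total RNA of the frozen muscle, with whatever nerve branches it held. The design asks which RNAs of the muscle change over adult life. The labels do not say that libraries came from separate animals, so the p-values measure only the spread between these libraries, which may be technical.

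In a peripheral nerve each myelinating Schwann cell covers a stretch of a single axon with compact myelin, while Remak Schwann cells hold several thin axons without myelin. The transcription factors Sox10 and Egr2 drive the myelin genes, and Schwann cells that lose contact with an axon lower those genes and make the low-affinity neurotrophin receptor p75NTR, the product of Ngfr, which mature myelinating cells make little of. Terminal Schwann cells cap the neuromuscular junction. Ngfr is also made by some cells that are not glia.

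Library totals were 42404254 to 59245029 counts, and all 8 genes passed the filter on low counts that left 19571 genes for testing. Levels are given in CPM, which sets each count against its library's TMM-scaled total. The limit that a count of 0 allows, 3 counts of the total, was 0.0506 to 0.0707 CPM by library and is for counting error alone. Transcripts of 9 kidney genes stood in 5 libraries at a summed 3.16 to 52.1 CPM, per library total, and in the 3 others at 0.0844 to 0.395 CPM. Both libraries of 3 months were among the 5, as were the first replicates of 12 and 24 months and the second of 30 months. Age therefore overlaps with this library set, and the results for Ngfr are also given within each set. In the set of 5 the kidney sum was 52.1 and 14.5 CPM at 3 months, 5.03 at 12, 3.64 at 24 and 3.16 at 30 months. Values within that set therefore do not separate age from the kidney level. Of 6 markers of oligodendrocytes, the myelinating glia of the brain and spinal cord, none passed the filter, 2 had a count of 0 in every library, and the summed level of the 6 was 0.0390 to 0.173 CPM. Mog, a defining protein of central myelin, had 0 to 5 counts in a library.

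Stretches around the transcription start of Prx, Mag, Pmp22 and Ngfr are shown, the first 3 as genes of myelin and the last because Ngfr departs from them in the results that follow. Each runs from 250 bases before to 50 bases after a start in RefSeq's annotation of GRCm38.p6. The table gave 12 windows for 6 of the 8 genes, and for each gene shown the window nearest to its start in the files was taken. Windows of Mbp and Sox10 are not shown. A set of 4 short strings was searched on both strands. They were ACAAAG and ACAATG, cores that SOX proteins bind, GCGTGGG, a core that EGR proteins bind, and GGAATG, a core that TEAD proteins bind. Capitals mark the matches. Among all 32817 windows of the same length in the table, 18.7% held ACAAAG, 12.6% held ACAATG, 5.04% held GCGTGGG and 14.7% held GGAATG.
Prx promoter, chr7:27499074-27499373, plus strand: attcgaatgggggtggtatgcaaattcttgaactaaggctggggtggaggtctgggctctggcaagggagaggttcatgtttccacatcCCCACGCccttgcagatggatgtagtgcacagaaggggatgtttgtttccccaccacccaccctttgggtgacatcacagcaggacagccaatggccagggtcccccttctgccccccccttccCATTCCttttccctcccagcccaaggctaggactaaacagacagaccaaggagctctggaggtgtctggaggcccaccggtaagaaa
Mag promoter, chr7:30914814-30915113, minus strand: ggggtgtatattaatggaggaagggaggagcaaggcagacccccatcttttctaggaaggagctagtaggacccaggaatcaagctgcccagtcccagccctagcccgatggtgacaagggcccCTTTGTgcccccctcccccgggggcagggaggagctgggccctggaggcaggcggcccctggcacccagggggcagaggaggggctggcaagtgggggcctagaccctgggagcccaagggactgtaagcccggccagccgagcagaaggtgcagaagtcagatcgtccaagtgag
Pmp22 promoter, chr11:63128732-63129031, plus strand: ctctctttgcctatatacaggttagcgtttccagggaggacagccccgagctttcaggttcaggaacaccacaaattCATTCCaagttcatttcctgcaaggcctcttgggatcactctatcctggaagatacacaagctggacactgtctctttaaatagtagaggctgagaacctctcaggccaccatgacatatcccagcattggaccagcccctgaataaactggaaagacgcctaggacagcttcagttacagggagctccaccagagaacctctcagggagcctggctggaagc
Ngfr promoter, chr11:95587649-95587948, minus strand: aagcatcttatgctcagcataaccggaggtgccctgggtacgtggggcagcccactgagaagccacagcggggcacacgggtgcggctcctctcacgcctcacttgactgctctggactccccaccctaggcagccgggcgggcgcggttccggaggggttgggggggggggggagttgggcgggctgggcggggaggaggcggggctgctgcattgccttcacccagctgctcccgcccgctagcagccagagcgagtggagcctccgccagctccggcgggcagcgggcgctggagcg
The Prx window held GCGTGGG as its reverse complement, with its first base at −161 from the start, and GGAATG as its reverse complement, with its first base at −37. The Mag window held ACAAAG as its reverse complement, with its first base at −126, and the Pmp22 window held GGAATG as its reverse complement, with its first base at −173. None of the 4 strings was in this window of Ngfr. Empty windows were not particular to Ngfr, since 6 of the 12 held no match. These were the single windows of Ngfr and S100b, 3 of the 4 of Pmp22 and, of the 2 of Ncmap, the one at the start of the gene. Of the 3 windows of Mag, one held GGAATG and no SOX core. A match is a description of the letters, not a bound site.

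**Figure D1:**
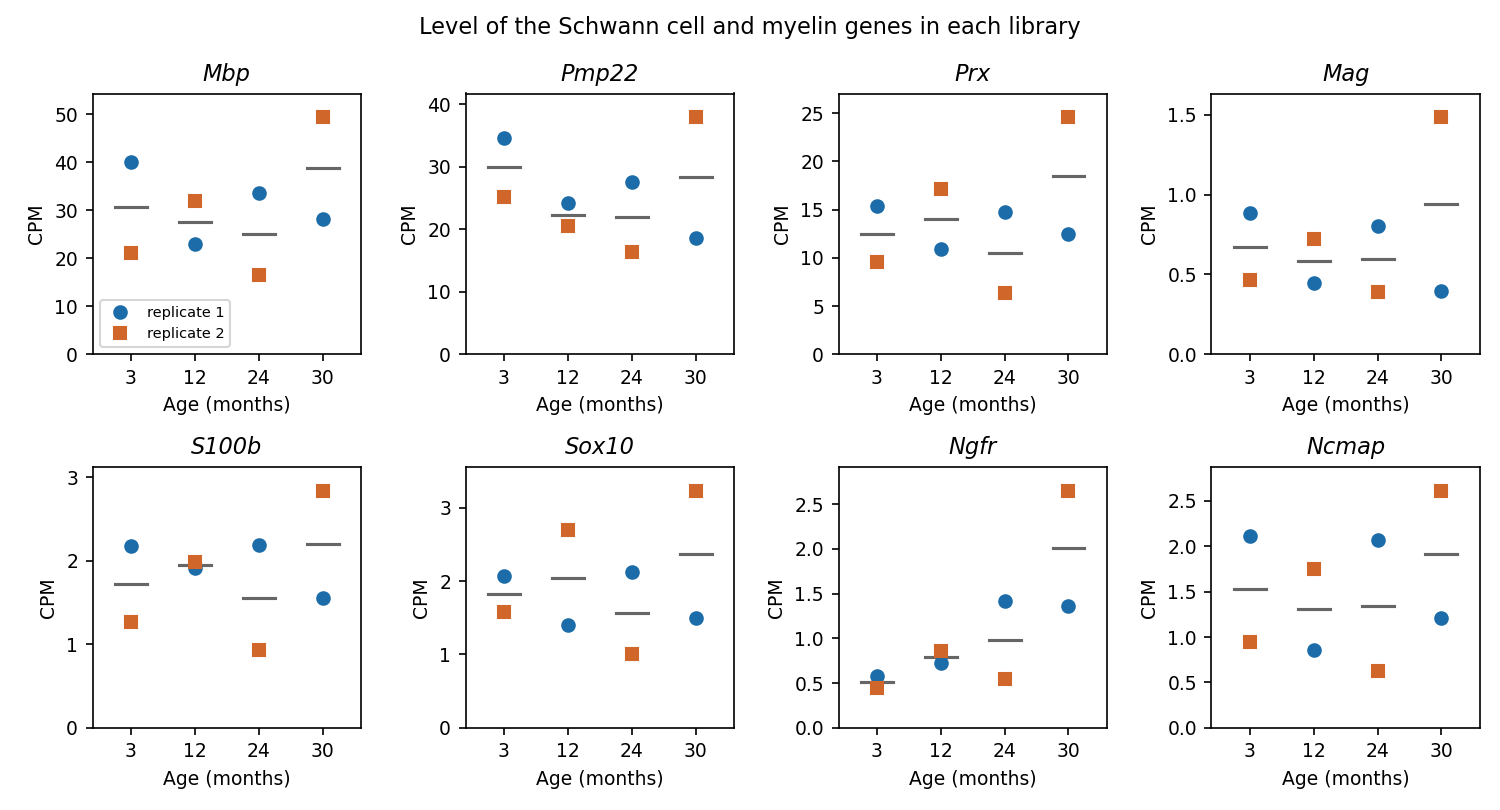
Level of each of the 8 genes in CPM (vertical axis, from 0) against age in months (horizontal axis), with 1 point per library, circles for replicate 1, squares for replicate 2 and a bar at the mean of the 2 libraries. Replicate 2 of 30 months is the highest point in all 8 panels, and replicate 2 of 24 months the lowest in all but that of Ngfr.

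Levels between genes were set per kilobase of the gene length given in the files. On that scale the median over the 8 libraries was 10.5 CPM per kilobase for Pmp22, 3.58 for Mbp, 2.44 for Prx, 1.31 for S100b, 0.673 for Sox10, 0.665 for Ncmap, 0.229 for Ngfr and 0.146 for Mag. Each gene stood above the next in all 8 libraries, except that Sox10 was above Ncmap in 6 of 8 and Ngfr above Mag in 7 of 8. The ranges over libraries of neighbours in this order overlapped for every pair but Pmp22 and Mbp. Mag, Ngfr, Ncmap, Sox10 and S100b rest on few reads, with 18 counts as the lowest (Mag) and 172 as the highest (Sox10) in any library, whereas Mbp had 852 to 2629 counts, Pmp22 836 to 2016 and Prx 326 to 1308.

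Mbp, on chromosome 18 from 82475146 to 82585637 on the plus strand of GRCm38, encodes myelin basic protein, which holds the cytoplasmic faces of the myelin membrane together. Its level was 40.1 and 21.1 CPM in the 3-month pair, 23.0 and 32.0 in the 12-month pair, 33.7 and 16.6 in the 24-month pair and 28.1 and 49.4 in the 30-month pair. The libraries of every age overlapped with those of every other age. At 30 months the mean was 38.8 ± 15.0 CPM, against 30.6 ± 13.4 CPM in the 3-month pair (SD, n = 2 each).

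Pmp22, on chromosome 11 from 63128982 to 63159547 on the plus strand, encodes a membrane protein of compact myelin whose duplication causes an inherited neuropathy in people. It had 34.5 and 25.2 CPM in the 3-month pair, 24.2 and 20.5 in the 12-month pair, 27.5 and 16.3 in the 24-month pair and 18.6 and 37.9 in the 30-month pair. Both libraries of 12 months lay below both of 3 months, by a narrow margin, while the libraries of 24 and 30 months overlapped with those of 3 months. The share of all genes that lay lower at 12 months in this way was not taken. Pmp22 is also made outside nerve, and its highest library stood only 2.33 times above its lowest, the narrowest span of the 8 genes.

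Prx, on chromosome 7 from 27499324 to 27520214 on the plus strand, encodes periaxin, a scaffold that anchors the outer myelin surface to the basal lamina. Its level was 15.4 and 9.62 CPM in the 3-month pair, 10.9 and 17.2 in the 12-month pair, 14.8 and 6.35 in the 24-month pair and 12.5 and 24.6 in the 30-month pair. Again every age overlapped with every other. A non-coding gene on the other strand, Gm15541, lies across 5405 bases of Prx and had 7 to 34 counts per library.

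Mag, on chromosome 7 from 30899176 to 30914873 on the minus strand, encodes a lectin of the innermost myelin membrane that faces the axon. Its 8 libraries held 41 and 25 counts in the 3-month pair, 23 and 37 in the 12-month pair, 42 and 20 in the 24-month pair and 18 and 79 in the 30-month pair, which gave 0.390 to 1.48 CPM. The 2 libraries of 30 months thus held nearly the lowest and the highest level of the series.

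Ncmap, on chromosome 4 from 135369576 to 135398227 on the minus strand, encodes a small membrane protein of non-compact myelin. It had 2.12 and 0.946 CPM in the 3-month pair, 0.857 and 1.76 in the 12-month pair, 2.07 and 0.623 in the 24-month pair and 1.21 and 2.61 in the 30-month pair. The highest library stood 4.19 times above the lowest.

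Sox10, on chromosome 15 from 79154913 to 79164490 on the minus strand in the files, is the transcription factor that all Schwann cells need and keep, whether they myelinate or not. It had 2.07 and 1.58 CPM in the 3-month pair, 1.40 and 2.69 in the 12-month pair, 2.13 and 1.01 in the 24-month pair and 1.49 and 3.23 in the 30-month pair, so the ages overlapped.

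S100b, on chromosome 10 from 76253853 to 76261159 on the plus strand, encodes a calcium-binding protein used as a general marker of Schwann cells. It had 2.18 and 1.26 CPM in the 3-month pair, 1.91 and 1.99 in the 12-month pair, 2.18 and 0.935 in the 24-month pair and 1.56 and 2.84 in the 30-month pair. Its end overlaps by 1731 bases with Dip2a on the other strand, which had 551 to 730 counts, and reads of the shared stretch cannot be told apart because it is not given whether strand was used in counting.

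Ngfr, on chromosome 11 from 95568818 to 95587735 on the minus strand, was the exception. It had 0.583 and 0.445 CPM in the 3-month pair, 0.721 and 0.858 in the 12-month pair, 1.42 and 0.546 in the 24-month pair and 1.36 and 2.65 in the 30-month pair. In counts these were 27 and 24, 37 and 44, 74 and 28, and 62 and 141 reads. Both libraries of 30 months lay above all 4 libraries of 3 and 12 months, and both of 12 months above both of 3 months, whereas replicate 2 of 24 months lay among those of 3 months. Of all genes tested, 21.1% had both libraries of 30 months above both of 3 months. The share for other pairs of ages was not taken. The highest library of Ngfr stood 5.96 times above its lowest, the widest span of the 8 genes.

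The first comparison asks whether the genes differ with age. None of the 8 was called in any of the 6 pairwise comparisons, across the 4 ages together or as a slope on age, by edgeR's quasi-likelihood test with Benjamini-Hochberg adjustment over all genes at 0.05. The share of all genes called was itself small. It was 0.148% for 30 against 3 months, 0.102% for 24 against 3 months, 0.0409% for 12 against 3 months, 0.00511% for 30 against 12 months, 0% for 30 against 24 months, 0% for 24 against 12 months, 0.0613% across the ages and 0.133% for the slope. At an unadjusted p under 0.05, 1 of the 8 passed for 30 against 3 months, for 30 against 12 months, across the ages and for the slope, Ngfr each time, and none passed in the other 4 tests. The share of all genes at that unadjusted threshold was 8.52%, 5.21%, 5.66% and 9.83% in the same order, so 1 gene of 8 is near the background, and in the other 4 it was 7.56% for 24 against 3 months, 5.5% for 12 against 3 months, 3.1% for 30 against 24 months and 3.07% for 24 against 12 months. In a test on simulated counts for 30 against 3 months, 74.7% of genes changed 4-fold were recovered and 22.9% of genes changed 2-fold.

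At 30 against 3 months the log2 fold change was 0.57 (SE 0.47) for Prx, 0.50 (SE 0.62) for Mag, 0.38 (SE 0.48) for Sox10, 0.36 (SE 0.44) for S100b, 0.34 (SE 0.43) for Mbp, 0.33 (SE 0.64) for Ncmap and −0.08 (SE 0.35) for Pmp22. The 95% interval of each included 0, and over the 7 genes the intervals reached from −1.14 to 1.92. The median over the 8 genes was 0.37, against 0.0093 over all genes tested. Much of this rests on replicate 2 of 30 months. Without it the median over the 8 genes was −0.21, the log2 change of Prx was 5.91e-05, and 5 genes turned sign. Their log2 change was then −0.12 for Mbp, −0.75 for Mag, −0.13 for S100b, −0.28 for Sox10 and −0.33 for Ncmap, none of them called. Without replicate 2 of 3 months it was −0.05 for Mbp and −0.14 for Ncmap, and for Pmp22 it was 0.16 with replicate 1 of 3 months left out and 0.34 with that of 30 months left out.

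At 24 against 3 months 7 of the 8 genes had a negative log2 change, with a median of −0.19 against 0.015 over all genes, from −0.45 (Pmp22) to 0.94 (Ngfr). Without replicate 2 of 24 months only 1 of the 8 was negative, with a median of 0.24, −0.13 for Pmp22 and 1.46 for Ngfr. Without replicate 1 of 24 months 7 were negative, with a median of −0.87, −0.87 for Pmp22 and 0.093 for Ngfr. Without replicate 1 of 3 months 2 were negative, with −0.21 for Pmp22. At 12 against 3 months 4 were positive and 4 negative, from −0.42 (Pmp22) to 0.62 (Ngfr), and with a library of 3 or 12 months left out 1 to 7 were negative. The comparisons with 3 months share its 2 libraries. Against 12 months and against 24 months, all 8 genes had a positive change at 30 months, from 0.18 to 1.35 and from 0.37 to 1.03. Without replicate 2 of 30 months 6 of the 8 were negative against 12 months and 4 of the 8 against 24 months. None of these values was called.

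**Figure D2:**
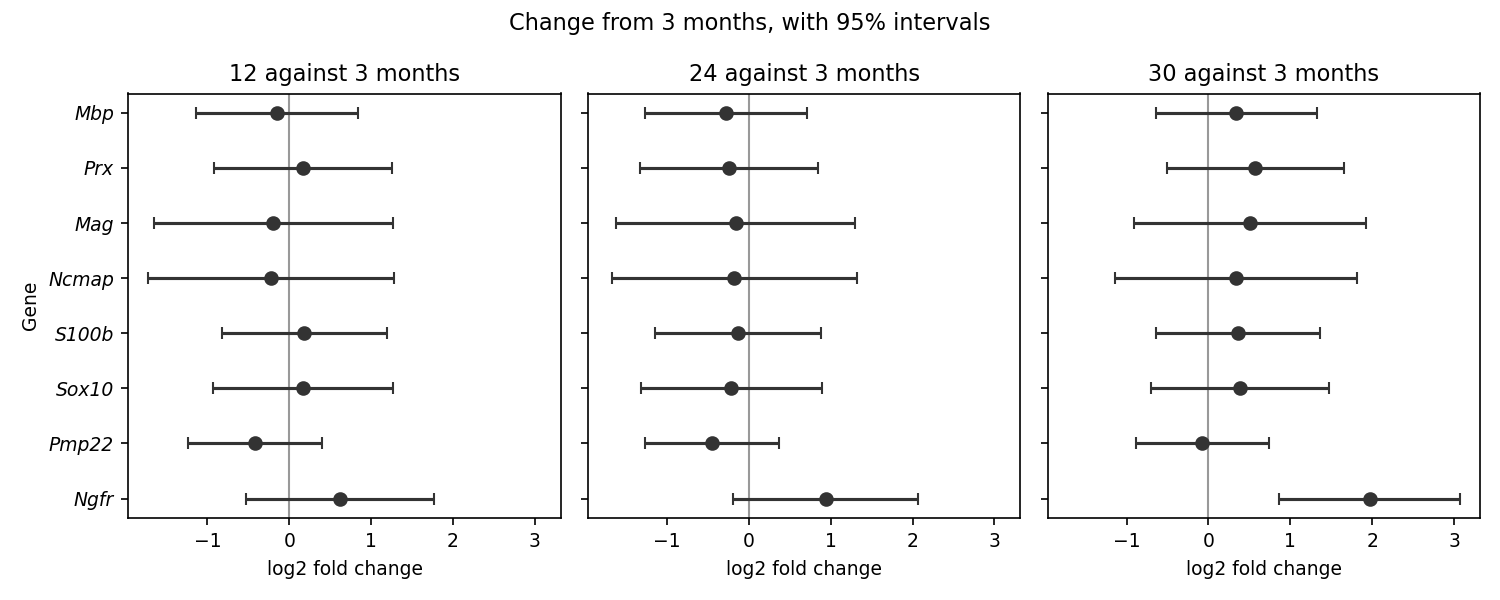
Log2 fold change against 3 months (horizontal axis) of each gene (vertical axis) at 12, 24 and 30 months, as points with 95% intervals from edgeR's fit over 8 libraries. The only interval that does not reach 0 is that of Ngfr at 30 months, 0.87 to 3.07 around 1.97, and its adjusted p is 0.239.

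For Ngfr the log2 fold change at 30 against 3 months was 1.97 (SE 0.49), a fold of 3.92. The unadjusted p was 0.00287, and the adjusted p was 0.239 by edgeR's quasi-likelihood test. Both libraries of 30 months lay above both of 3 months. That held for no other of the 8 genes, and for 21.1% of all genes tested. The slope on age was 0.066 per month on the log2 scale (SE 0.016, edgeR adjusted p = 0.155).

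The call for Ngfr depended on the test. At 30 against 3 months it was called by DESeq2 (log2 change 1.97, adjusted p = 0.0186), which called 1.09% of all genes, by edgeR with a term for the library set (2.26, adjusted p = 0.0150), which called 2.13%, and by edgeR with no filter on low counts (1.97, adjusted p = 0.000269), which called 1.12%. In the other 15 alternatives it was not called, and over all alternatives the adjusted p ran from 0.000269 to 0.838 and the log2 change from 1.41 to 2.37, the values without replicate 2 and without replicate 1 of 30 months. For the slope it was called by DESeq2 (adjusted p = 0.0152, with 1.52% of all genes called) and with the set as a term (adjusted p = 0.0262, with 1.51%), and across the ages with no filter (adjusted p = 0.000616, with 1.4%). Over the alternatives, the adjusted p of the slope ran from 0.0152 to 0.491 and that across the ages from 0.000616 to 1.00.

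Among the 5 libraries with kidney transcripts, log2 CPM of Ngfr was 0.47, 1.41 and 2.29 above the mean of 3 months at 12, 24 and 30 months. Among the 3 without, it was 0.64 higher at 30 than at 12 months, 1.26 higher at 30 than at 24 months, and 0.62 lower at 24 than at 12 months. The 7 other genes stood 0.36 (Pmp22) to 1.16 (Mag) above the mean of 3 months at 30 months in the set of 5, and in the set of 3 their difference at 30 minus 12 months was −0.83 (Sox10) to −0.13 (Pmp22), at 30 minus 24 months 0.019 (Mag) to 0.97 (Prx), and at 24 minus 12 months −1.44 (Ncmap) to −0.33 (Pmp22). These are differences that rest on single libraries, with no test. In the set of 5 the kidney sum also fell with age, so age and kidney level cannot be told apart there.

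The second comparison asks whether the genes vary together between libraries, whatever the age. Mbp, Prx, Mag, Ncmap, S100b and Sox10 did so closely. Within an age, replicate 1 was above replicate 2 for 8 of 8 genes at 3 months, with a median difference in log2 CPM, replicate 1 minus replicate 2, of 0.72, and for 8 of 8 at 24 months, with one of 1.12. Replicate 2 was above replicate 1 for 8 of 8 at 30 months, with a median of −1.001, and for 7 of 8 at 12 months, with one of −0.56, Pmp22 being the exception. The lower and upper quartiles of the same difference over all genes were −0.26 and 0.37 at 24 months, and −0.31 and 0.23 at 30 months.

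**Figure D3:**
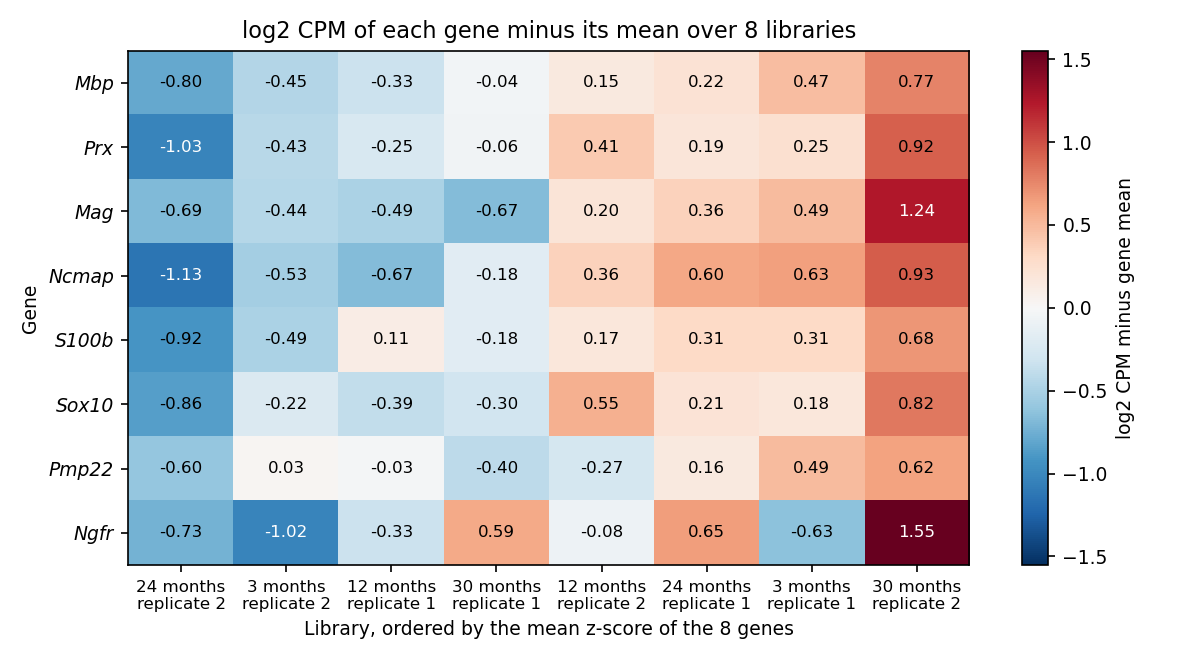
Log2 CPM of each gene minus its mean over the 8 libraries (colour and printed value), with genes in rows and libraries in columns ordered by the mean z-score of the 8 genes. Most rows run from low in replicate 2 of 24 months to high in replicate 2 of 30 months, whereas Ngfr is low in both libraries of 3 months and high in both of 30 months.

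Over the 8 libraries, log2 CPM was correlated for all 28 pairs of genes, with exact two-sided permutation tests adjusted over the 28. The 15 pairs among Mbp, Prx, Mag, Ncmap, S100b and Sox10 had Pearson's r of 0.84 to 0.97 and Spearman's rho of 0.83 to 0.98, and 15 of 15 were called (adjusted permutation p of 0.00278 to 0.0172). The closest was Mbp with Ncmap, at r = 0.97 (exact permutation p = 9.92e-05, adjusted 0.00278). Without the 2 libraries farthest from the median, r of the 15 pairs was 0.71 to 0.95. These 15 leave out Pmp22 and Ngfr, whose pairs all had lower r, so 15 of 15 is not independent of that choice. Only the 28 pairs together were planned. Of the 7 pairs with Pmp22, 3 were called. The 7 pairs with Ngfr had r of 0.38 to 0.73, and none was called (adjusted permutation p of 0.0538 to 0.356). Over the 28, 18 were called by Pearson's r and 19 by Spearman's rho, and without replicate 2 of 30 months 11 were called by Pearson's r. As deviations from the mean of each age, the 7 pairs with Ngfr had r of 0.89 to 0.96, as a description. Within each age the library higher for Ngfr was also the higher one for those 6 genes.

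The myelin genes Cldn19 and Drp2 were among those closest in pattern to the 8. Ranked by Pearson's r with the mean z-score of the 8 genes, among 11967 other genes with a mean log2 CPM of at least 0, the 10 closest included Kif1a (0.986), Plekha4 (0.982), Tmem229b (0.976), Cldn19 (0.974), Plxnb1 (0.969), Tenm4 (0.962), Syt7 (0.960), Sptbn5 (0.959) and Drp2 (0.955). Cldn19 is a claudin of the autotypic junctions of myelin, and Drp2 binds periaxin at the Schwann cell surface. Kif1a encodes a motor for axonal transport. With RLE size factors the same 10 were the closest, and with library totals alone 7 of them were.

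The 11 other genes of the myelin list, which include Drp2, Cldn19, Gjb1 and Fa2h, had a summed level of 45.5 and 30.3 CPM in the 3-month pair, 30.2 and 34.6 in the 12-month pair, 36.4 and 21.0 in the 24-month pair and 27.4 and 53.5 in the 30-month pair. Their log2 sum had r = 0.95 and rho = 0.90 with the mean z-score of the 8 genes over the 8 libraries, and r = 0.83 without the 2 farthest libraries, given as a description with no p. The r was lower for the other Schwann cell and nerve lists, a difference that was not tested. The r of the summed level was 0.63 for 13 genes of Schwann cell identity (0.41 without the 2 farthest libraries and 0.16 without replicate 2 of 30 months), 0.61 for 12 axon genes (0.49 and 0.28) and 0.55 for 5 markers of Schwann cells without myelin (−0.079 and 0.20). It was −0.047 for 14 genes of immature or repair Schwann cells, −0.43 for 14 genes of the node and the axon contact and −0.47 for 12 genes of neurotrophin and neuregulin signalling. Of the 11 myelin genes, 10 were tested, and all 10 had a positive r, with a median of 0.89. Gene by gene, r was also positive for 11 of 12 tested identity genes (median 0.68) and 9 of 10 repair genes (0.46). It was positive for 9 of 13 node genes (0.63), 4 of 6 axon genes (0.42) and 7 of 10 neurotrophin and neuregulin genes (0.23). For markers of Schwann cells without myelin it was 4 of 5 (0.43). A sum follows its most abundant genes, and Jun (r −0.31) alone had 59.7 to 114 CPM in the repair list. Markers of muscle fibres ran the other way. The summed level of Ckm, Acta1, Mylpf, Pvalb, Myh4 and Tnnt3 was 93681 and 139675 CPM in the 3-month pair, 110432 and 131023 in the 12-month pair, 108029 and 167070 in the 24-month pair and 135821 and 76793 in the 30-month pair. Its r with the 8 genes was −0.90, its rho −0.93, and its r −0.64 without the 2 farthest libraries. In whole muscle, fewer cells of a type and less RNA per cell cannot be told apart, and the part that the share of fibre RNA has in the levels of the 8 genes was not tested.

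**Figure D4:**
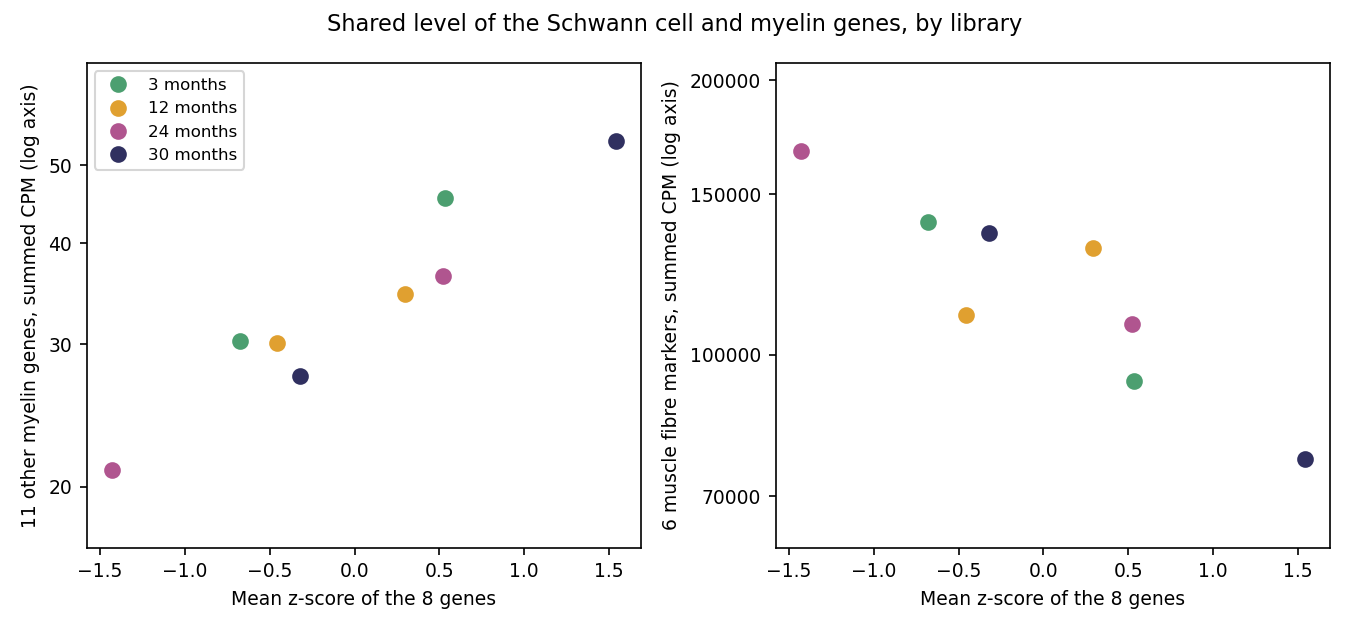
Mean z-score of log2 CPM of the 8 genes (horizontal axis) against the summed CPM of 11 other myelin genes (left) and of 6 muscle fibre markers (right), both on log axes, with 1 point per library coloured by age. The myelin sum runs from 21.0 CPM in the library lowest for the 8 genes to 53.5 CPM in the highest, and the fibre sum is 167070 CPM in the first of these and 76793 CPM in the second.

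Lists for other cells of the muscle were set beside the 8 genes in the same way. The r was 0.81 for 6 adipocyte markers, 0.79 for 5 perineurial markers, 0.64 for 6 macrophage markers (80.0 to 186.7 CPM), 0.63 for 5 melanocyte markers (0.566 to 1.20 CPM), 0.59 for 8 endothelial markers (226.7 to 299.6 CPM), 0.42 for 6 mural markers (312.9 to 444.0 CPM), 0.36 for the 9 kidney genes and 0.05 for 6 fibroblast markers (560.7 to 1379 CPM). The adipocyte sum was 117.4 and 68.8 CPM in the 3-month pair, 91.6 and 125 in the 12-month pair, 107.7 and 50.5 in the 24-month pair and 54.8 and 115 in the 30-month pair. The perineurial sum was 49.8 and 41.6 CPM, 58.3 and 42.1 CPM, 61.3 and 33.4 CPM, and 36.3 and 74.1 CPM in the same order. Both were lowest in replicate 2 of 24 months, like 7 of the 8 genes. Without the 2 farthest libraries the r was 0.77 for adipocyte, 0.37 for perineurial, −0.50 for macrophage, 0.13 for melanocyte, 0.11 for endothelial, 0.62 for mural and −0.36 for fibroblast markers, and 0.066 for the kidney genes. Without replicate 2 of 30 months it was 0.86, 0.63, 0.32, 0.13, 0.32, 0.075, 0.13 and 0.46 in the same order. Their part in the results was not tested.

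The third comparison sets each gene against Sox10 in the same library, a ratio of counts that no scaling between libraries can alter. It was chosen after the levels had been seen, among them the higher level of Ngfr at 30 months, so its p-values are not independent evidence. The Ngfr to Sox10 ratio was 0.281 and 0.282 in the 3-month pair, 0.514 and 0.319 in the 12-month pair, 0.667 and 0.538 in the 24-month pair and 0.912 and 0.820 in the 30-month pair. Every library of 24 and 30 months was above every library of 3 and 12 months, and both libraries of 30 months were above both of 24 months. The share of all genes whose ratio to Sox10 did so was not taken. The mean log2 ratio of Ngfr to Sox10 was −1.83, −1.30, −0.74 and −0.21 at 3, 12, 24 and 30 months.

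Over the 8 libraries the log2 ratio of Ngfr to Sox10 correlated with age at r = 0.947 (exact two-sided permutation p = 0.000794, adjusted over 7 ratios 0.00556) and rho = 0.976 (exact permutation p = 0.000794, adjusted 0.00556). It was 0.882 without the libraries of 3 months, the 2 farthest in age from the median, and 0.934 without replicate 2 of 30 months. As a description, it was 0.976 among the 5 libraries with kidney transcripts, whose kidney sum fell with age, and 0.982 among the 3 without. The 6 other ratios, of Mbp, Pmp22, Prx, Mag, Ncmap and S100b to Sox10, had r with age of −0.26 to 0.40 over the 8 libraries, with adjusted permutation p of 0.807 or more. Among the 5 libraries their r was −0.90 (Pmp22) to 0.53 (Mag). Among the 3 it was 0.16 (Mag) to 0.9997 (S100b), with 0.9995 for Mbp, so a high r over those 3 was not particular to Ngfr. The difference of the mean log2 ratio between 30 and 3 months was 1.62 for Ngfr, and −0.43 (Pmp22) to 0.24 (Prx) for the others.

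Each other gene was also taken as the divisor in place of Sox10. The log2 ratio of Ngfr to each of the 7 other genes, which all share Ngfr, had r with age of 0.845 (Mag) to 0.972 (Prx), given as a description with no p. Without the libraries of 3 months these r were 0.659 (Mag) to 0.974 (S100b), with 0.727 for Ncmap and 0.779 for Pmp22. In edgeR's fit over all genes with log2 CPM of Sox10 as a covariate, a setting added after the data were seen, Ngfr had a log2 change of 1.65 at 30 against 3 months (SE 0.33, adjusted p = 0.202, with 0.153% of all genes called) and a slope of 0.058 per month (adjusted p = 0.0584, with 0.235% called). No call was made there.

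**Figure D5:**
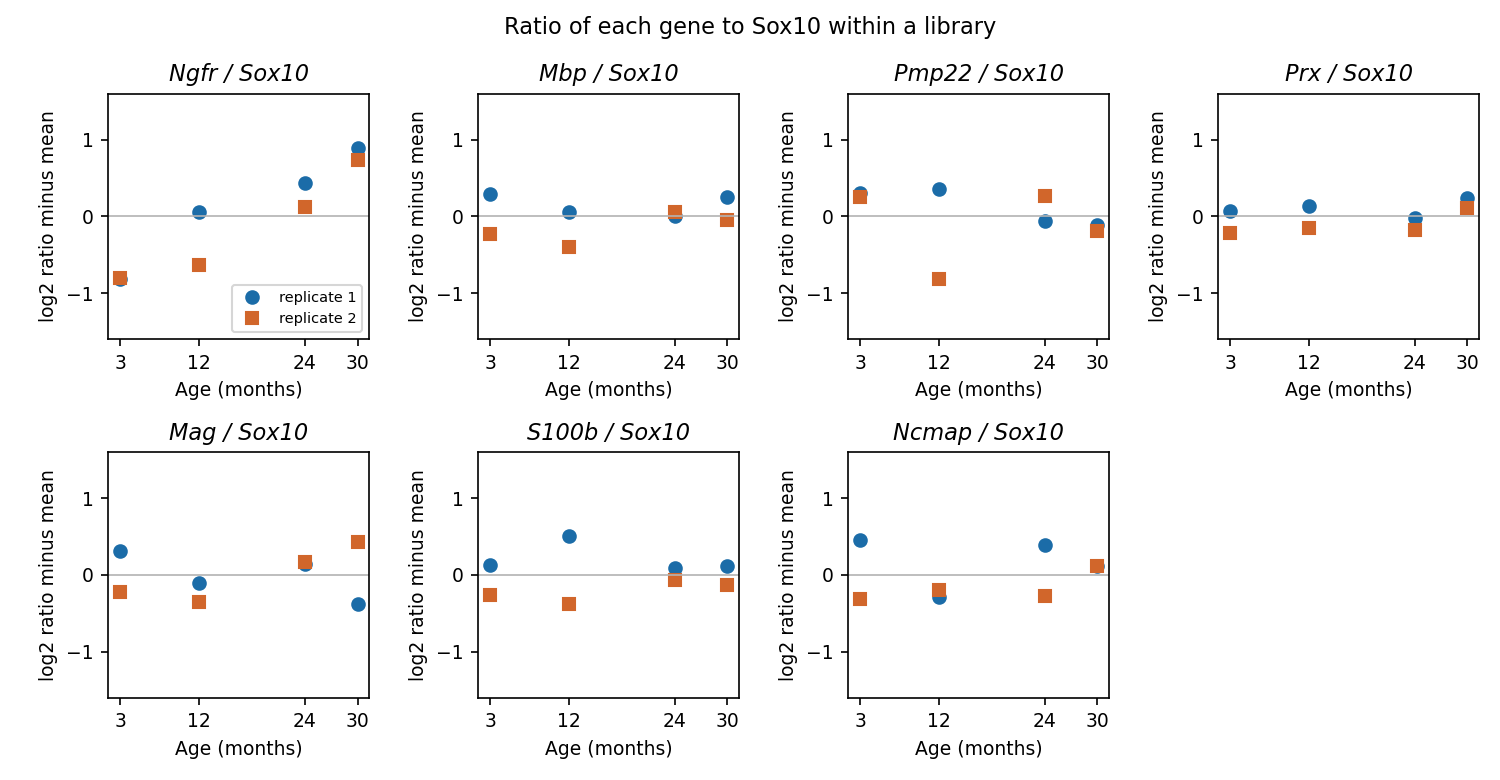
Log2 ratio of the counts of each gene to those of Sox10 in the same library, minus its mean over the 8 libraries (vertical axis), against age in months (horizontal axis), with circles for replicate 1 and squares for replicate 2. The points of Ngfr stand higher at each later age, with mean log2 ratios of −1.83, −1.30, −0.74 and −0.21 before the mean was taken off, and the r of the 6 other ratios with age was −0.26 to 0.40.

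By Pearson's r over the 8 libraries, the genes with a pattern most like that of Ngfr alone were Kcnj8 (0.973), Isyna1 (0.971), Rrad (0.966), Usp11 (0.965), Marcksl1 (0.958), Hspb7 (0.955), Agtrap (0.951), Apod (0.946), Ddit3 (0.946) and Aoah (0.945). Kcnj8 encodes a potassium channel subunit and is on the list of mural markers, and Ddit3 encodes a transcription factor of the stress response. None of the 10 closest to the 8 genes together was among them.

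Genes of 8 lists on nerve biology, 86 in all of which 71 were tested, gave 0 calls at 30 against 3 months by edgeR's quasi-likelihood test, beside 0.148% of all genes. At an unadjusted p under 0.05, 9 of 71 passed, 8 higher and 1 lower, beside 8.52% of all genes. Over the same 71 genes limma-voom called 0 and DESeq2 1, the latter beside 1.09% of all genes. edgeR with the set as a term called 5 of the 71, beside 2.13% of all genes. With no filter on low counts 85 genes of the lists were tested, and edgeR called 4 of them, beside 1.12% of all genes. The median log2 change of the 71 was 0.25.

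Among myelin genes, 0 of 10 tested were called, with a median log2 change of 0.22 at 30 against 3 months and −0.42 at 24 against 3 months. Gal3st1, which makes sulfatide, stood at 0.78 (SE 0.59), Gjb1, the connexin of myelin, at 0.59 (SE 0.72) and Pllp, a membrane protein of myelin, at 0.36 (SE 0.42). Fa2h, which makes the hydroxylated lipids of myelin, stood at −0.41 (SE 0.43) at 30 months and at −1.55 (SE 0.47, edgeR adjusted p = 0.492) at 24 months. Among the 12 tested genes of Schwann cell identity, 0 were called and 12 had a positive change, beside 10063 of the 19571 genes tested. The summed level of the list was 113.4 and 137.8 CPM in the 30-month pair, against 109.6 and 108.0 CPM in the 3-month pair. How far replicate 2 of 30 months carries the change was not tested. Egr2, the master regulator of myelination, had 0.857 and 1.75 CPM in the 30-month pair, against 1.02 and 0.593 CPM in the 3-month pair, a log2 change of 0.71 (SE 0.42). Nab2, a cofactor of Egr2, had a log2 change of 0.83 (SE 0.21, edgeR adjusted p = 0.239), and Foxd3, a factor of early glia, one of 0.94 (SE 0.28, adjusted p = 0.334).

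Of 10 tested genes that mark immature or repair Schwann cells, 0 were called and 7 had a positive change, with a median of 0.35. Over all genes tested, 10063 of 19571 had a positive change. Runx2 had a log2 change of 0.89 (SE 0.28, edgeR adjusted p = 0.364), Ncam1, a cell adhesion molecule that is also made by muscle fibres without a nerve, one of 0.63 (SE 0.21, adjusted p = 0.423), Jun, the regulator of the repair state, one of 0.42 (SE 0.22, adjusted p = 0.659), and Cdh2, N-cadherin, one of −0.56 (SE 0.26, adjusted p = 0.609). Of 5 tested markers of Schwann cells without myelin 0 were called, with a median of 0.17, and of 13 tested genes of the node and the axon contact 0 were called, with a median of 0.29.

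Of the 6 tested axon genes, 0 were called and 6 had a positive change, beside 10063 of the 19571 genes tested. The summed level of the list was 9.93 and 15.8 CPM in the 30-month pair, against 8.40 and 5.99 CPM in the 3-month pair. Uchl1, a ubiquitin hydrolase abundant in neurons, had 3.82 and 6.77 CPM in the 30-month pair, against 1.40 and 1.63 CPM in the 3-month pair, a log2 change of 1.80 (SE 0.29, edgeR adjusted p = 0.0605). Of the tested genes of the nerve lists it was the nearest to a call, and which cells of the muscle made its RNA was not tested. DESeq2 called it (1.80, adjusted p = 2.46e-05), with 1.09% of all genes called. edgeR with the set as a term called it (1.94, adjusted p = 0.00327), with 2.13%, as did edgeR with no filter (1.80, adjusted p = 7.34e-08), with 1.12%. Without replicate 1 of 30 months, the lower library of that age for this gene, the log2 change of Uchl1 was 2.15. The change without replicate 2 of 30 months, the higher library, is not given here. Tubb3, a neuronal tubulin, had a log2 change of 1.46 (SE 0.39, edgeR adjusted p = 0.275). Of 10 tested genes of neurotrophin and neuregulin signalling, 0 were called. Lingo1, a partner of p75NTR at the membrane, had a log2 change of 1.90 (SE 0.41, edgeR adjusted p = 0.181), Bdnf, a ligand that p75NTR binds, one of 1.15 (SE 0.40, adjusted p = 0.451), and Ntf5, which encodes neurotrophin-4, one of −0.57 (SE 0.18, adjusted p = 0.346). Of 5 tested perineurial markers, 0 were called, with a median of 0.13.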

How the data were processed

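Per the labels' protocols, Trizol was used to take total RNA from flash-frozen gastrocnemius, and a NEBNext Ultra kit for the libraries. The authors deposited whole-number counts per Ensembl gene, not normalized, with gene lengths and coordinates, per the file headers. The submitters' processing notes name Trimmomatic 0.36, STAR 2.5.2b, featureCounts and Subread 1.5.2, and the builds GRCm38 and mm10, with no role for each. Not given in the sources used here are the annotation release, the strand setting and how reads with several matches were treated. Symbols were matched for 48970 of the 49315 identifiers. Coordinates are those of the files, and 7 of the 8 genes have the same ones in GENCODE M21.

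Counts of all 8 libraries were fitted in edgeR 4.0.16 under R 4.3.3, with filterByExpr on age, TMM scaling, a robust quasi-likelihood model of the 4 ages and 4 residual degrees of freedom. A gene was called at a Benjamini-Hochberg adjusted p below 0.05 over 19571 genes. CPM are scaled by TMM, log2 CPM carry a prior count of 2, and the kidney sums that set the library sets, with a limit of 1 CPM, are per library total. Totals of 42404254 to 59245029 counts set the precision, and a floor is 3 counts. In 3 runs on simulated counts for 30 against 3 months over 19571 genes, 1.99% of genes changed 1.5-fold were recovered, and at most 12 unchanged genes were called.

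The genes, lists and tests were chosen with earlier results of these data known. Named genes are the 8, up to 4 genes per nerve list with the lowest p across the ages, genes of high level in the other lists, and the 10 closest in pattern. Correlations have exact permutation tests over 40320 orders of the libraries (SciPy 1.17.1). Alternatives were RLE factors, no scaling beyond totals, no filter on low counts, a filter of 1 CPM in 2 libraries, DESeq2 1.42.0, limma-voom (limma 3.58.1), the compared libraries alone, a replicate block, a term for the library set, which leaves 3 residual degrees of freedom, and each library left out, where the lone library of an age is assumed to vary like the others. Added after seeing the data were Sox10 as a covariate, the ratios, differences within a library set, list sums and the genes most like Ngfr. Alternative splicing was not analysed here. Some genes of the myelin list are not reported here and were left out of its sums and counts. No column of another series was present.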

Additional observations from a re-analysis of the deposited data

How the results depend on the processing

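No gene of the 8 was called by edgeR's quasi-likelihood test with the filter on low counts and no term beside age. The count of 0 moved to 1, Ngfr, in 6 combinations of setting and test. These were 30 against 3 months with no filter on low counts (1), a term for the library set (1) and DESeq2 (1), across the 4 ages with no filter (1), and the slope with that term (1) and DESeq2 (1). Of the nerve lists, 0 of 71 tested genes were called at 30 against 3 months. Among the alternatives that kept all 8 libraries, the count was 5 of 71 with the set as a term (2.13% of all genes called) and 1 of 71 with DESeq2 (1.09%). With no filter it was 4 of 85 (1.12%). The 18 called pairs of genes were 11 to 22 with a library left out. At 30 against 3 months, the log2 change turned sign for Pmp22 with the set as a term (0.18) and, with Sox10 as a covariate, for Mag (−0.057) and Ncmap (−0.094). With a library left out it ran from −0.12 to 0.87 for Mbp, −0.68 to 0.34 for Pmp22, 5.91e-05 to 0.98 for Prx, −0.75 to 1.15 for Mag, −0.13 to 0.80 for S100b, −0.28 to 0.83 for Sox10 and −0.33 to 1.02 for Ncmap, and the cause was not tested. The log2 change of Ngfr at 30 against 3 months kept its sign in all 18 alternatives run. Over all genes, 29 were called for that comparison, 214 by DESeq2, 416 with the set as a term and 378 with no filter. Deviations of libraries with the same replicate number correlated at −0.36 to 0.26. No pairing by number was seen, though with 2 libraries per age this cannot exclude one. With a replicate block, Ngfr had a log2 change of 1.98 at 30 against 3 months (edgeR adjusted p = 0.367), and none of the 8 genes was called. Each age had 2 libraries, and 5 of the genes had 18 to 172 counts per library. Changes of 2-fold or less were mostly below what could be called. In the simulated counts, 22.9% of genes changed 2-fold and 74.7% of genes changed 4-fold were recovered. Those genes were drawn from all genes tested, and the recovery at counts as low as those of the 5 was not taken.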
